A study of Mus musculus with 6 samples.

Results

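The genes described here are 10 G protein-coupled receptors of pancreatic beta cells, chosen by name: Glp1r, Gipr, Gcgr, Gpr119, P2ry1, Chrm3, Adra2a, Galr1, Sstr2 and Sstr3. A probe set, the unit of an array value, was taken for a receptor where the array annotation gave that symbol and no other. This gave 64 probe sets for 9 receptors, of 212097 probe sets and 20416 genes with a single symbol in the whole table. Adra2a, the alpha-2A adrenoceptor gene, is not analysed here.

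RNA was profiled in MIN6-4N, a mouse pancreatic beta cell line, on 6 Affymetrix arrays in 2 groups of 3 cultures. The Meg3 clone had been stably transfected with pcDNA3.1 carrying mouse Meg3, an imprinted long non-coding RNA gene, and the vector clone with empty pcDNA3.1. Both clones had passed the same G418 selection and were grown in low-glucose medium with G418. The sample descriptions also speak of sorted cells, a step absent from the growth, treatment and extraction protocols, so it is not known whether the cultures were sorted. Each group was a single clone, named in more than 1 way by the submitters for Meg3, so the plasmid's effect and other differences between clones cannot be told apart, and p-values measure only the spread between cultures of a clone. The question is which genes change in level when Meg3 is overexpressed. Meg3 read 7.24, 7.92 and 7.53 (log2) in the Meg3 clone, against 5.63, 6.00 and 5.88 in the vector clone.

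A G protein-coupled receptor sits in the plasma membrane and passes the binding of a hormone, transmitter or metabolite to a trimeric G protein inside the cell. In beta cells, receptors that couple to Gs raise cyclic AMP and enhance glucose-stimulated insulin secretion, receptors that couple to Gq activate phospholipase C and release stored calcium, and receptors that couple to Gi lower cyclic AMP and restrain secretion. The incretin hormones of the gut, acetylcholine from nerves, extracellular nucleotides, galanin and somatostatin all reach the beta cell through such receptors.

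Before the receptors, 3 facts of the whole table bear on what follows. Meg3 replicate 1 and vector replicate 2 stood apart: the SD of their probe set values around the median of the other arrays was 0.63 and 0.85, against 0.42 to 0.48 for the remaining 4 arrays. Values that rest on these arrays are therefore also given without them, a setting chosen after seeing the data. Of 10 beta cell markers, 9 exceeded the median of all genes (6.66), among them Ins2 at 12.60 ± 0.05 in the Meg3 clone and 12.54 ± 0.09 in the vector clone (SD, n = 3 each), and the urocortin gene Ucn3 did not. Of other cell types, 3 of 4 alpha cell markers exceeded it, among them Gcg at 12.66 ± 0.11 in the Meg3 clone and 12.82 ± 0.12 in the vector clone (SD, n = 3 each), as did 3 of 4 neuron markers, 2 of 2 for PP and epsilon cells, 2 of 5 for leukocytes, 1 of 4 for delta cells, 1 of 4 for duct cells and 1 of 5 for fibroblasts. The 5 acinar and 4 endothelial markers measured lay under the median of all genes. Of 47 markers measured for beta cells and 9 other groups of cell types, 0 passed the test between the clones described next (0.666% of all genes did), and 4 had an unadjusted p under 0.05 (6.96% of all genes). With both arrays that stood apart left out, 2 markers were called lower, the prohormone convertase gene Pcsk1 (-0.56, limma adjusted p = 0.0163) and the T cell gene Cd3e (-0.72, limma adjusted p = 0.00238), where 5.44% of all genes were called.

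With all 6 arrays, 0 of the 9 receptors passed the test between the clones (limma, two-sided, Benjamini-Hochberg adjusted p under 0.05 over all genes), where 0.666% of all genes did. At an unadjusted p under 0.05 there was 1 receptor, Sstr2, against 6.96% of all genes, and the same receptor was the only 1 of the 9 whose groups did not overlap, against 12.8% of all genes. Of the 9 differences, 4 were positive and 5 negative in the Meg3 clone. Their median was -0.01 (log2), and that of all genes was 0.01. All values below are log2 gene values, the mean over a receptor's probe sets, and differences are Meg3 clone minus vector clone with moderated standard errors and 95% intervals from limma.

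**Figure D1:**
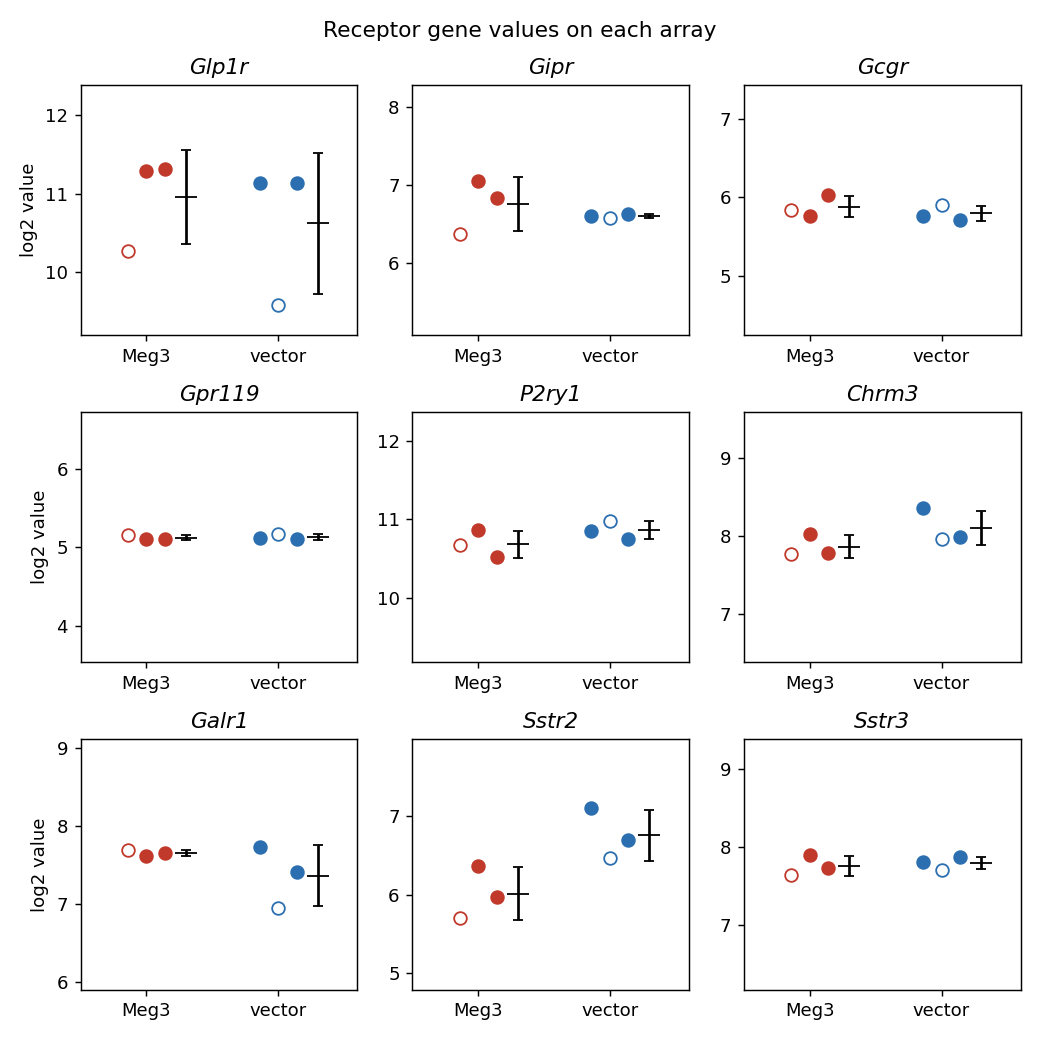
Log2 value of each of the 9 receptors (vertical axis, an axis of the same length in log2 units in every panel) on each array, with Meg3 cultures at the left in red and vector cultures at the right in blue. Open circles are Meg3 replicate 1 and vector replicate 2, and the bars give the group mean and SD (n = 3). The groups are separate for Sstr2, with Meg3 values from 5.70 to 6.37 and vector values from 6.47 to 7.11, and the open circles lie far below the others for Glp1r.

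The level of each receptor was set beside that of olfactory receptors, G protein-coupled receptors of the nose, taken as a class. Whether single olfactory receptors are expressed in these cells was not tested. Their 1206 probe sets had a median of 4.16 and a 95th percentile of 6.04 (log2, mean over 6 arrays). Above that 95th percentile lay 47 of the 64 receptor probe sets, and 68.4% of all probe sets. All 13 probe sets of Glp1r, all 4 of P2ry1 and all 4 of Sstr3 exceeded it, as did 5 of 6 for Chrm3, 4 of 5 for Galr1, 2 of 3 for Sstr2, 8 of 15 for Gipr and 7 of 13 for Gcgr. The single probe set of Gpr119 did not. Probe sets bind with different strength, so these values place each receptor within the array and do not rank transcripts by abundance.

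**Figure D2:**
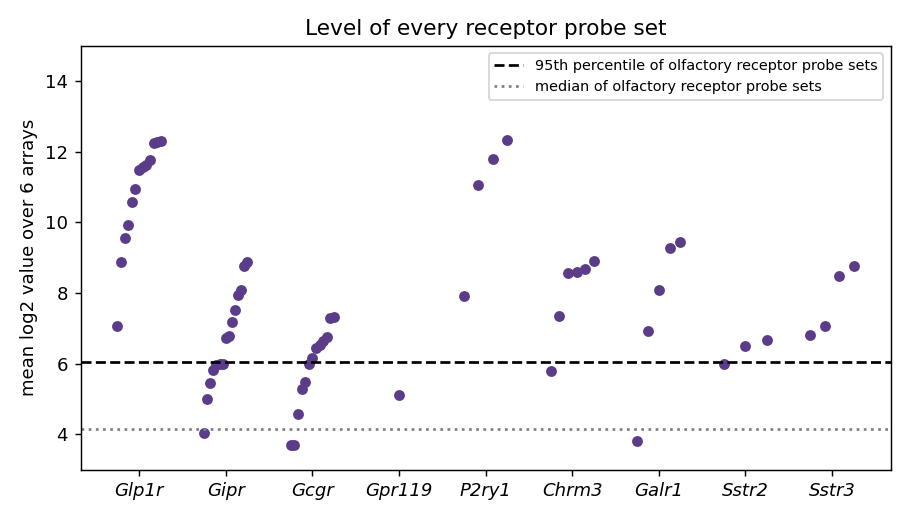
Mean log2 value over 6 arrays (vertical axis) of every probe set of each receptor (points, sorted by value). The dashed line is the 95th percentile of olfactory receptor probe sets (6.04) and the dotted line their median (4.16). Glp1r, P2ry1 and Sstr3 lie wholly above the dashed line, whereas Gipr and Gcgr straddle it and Gpr119 lies below it.

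Among the Gs-coupled receptors, Glp1r, the receptor for the incretin GLP-1, was read high in both clones, at a mean above that of 97.4% of all genes. Glp1r read 10.27, 11.29 and 11.32 in Meg3 replicates 1 to 3, against 11.14, 9.58 and 11.14 in vector replicates 1 to 3. The 2 low readings were those of the arrays that stood apart, and the remaining 4 arrays kept within 11.14 to 11.32. The difference of 0.34 (SE 0.45, 95% interval -0.70 to 1.38; limma adjusted p = 1.00) was smaller than the spread within either clone, and that interval reached from 0.616-fold to 2.59-fold. Without both arrays that stood apart it was 0.16 (SE 0.09, 95% interval -0.05 to 0.38; limma adjusted p = 0.384), and without vector replicate 2 alone its sign turned (-0.18).

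The spread of Glp1r over the 6 arrays (SD 0.71) exceeded that of 99.3% of all genes. Meg3 replicate 1 differed from the mean of the other Meg3 cultures by -1.04, and vector replicate 2 differed from the mean of the other vector cultures by -1.56. A deeper drop was seen in 0.353% of all genes on Meg3 replicate 1 and in 0.318% on vector replicate 2, where the median gene shifted by 0.02 and 0.08. The drop was common to the gene: for 12 of 13 Glp1r probe sets these were the lowest 2 arrays. The exception was probe set 10443691, which read 8.68, 8.52 and 9.16 in the Meg3 cultures, against 8.76, 9.40 and 8.70 in the vector cultures. The probe set with the deepest drop, 10443693, read 8.40, 10.71 and 10.55 in the Meg3 cultures, against 10.06, 7.22 and 10.45 in the vector cultures. The last by number, 10443703, dropped by 0.36 on Meg3 replicate 1 and by 0.67 on vector replicate 2. Over the 13 probe sets the drops on both arrays correlated at 0.92 (Pearson, a description over probe sets that share their arrays and their affinity). RNA quality was not measured in these data, and its part in this pattern was not tested.

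**Figure D3:**
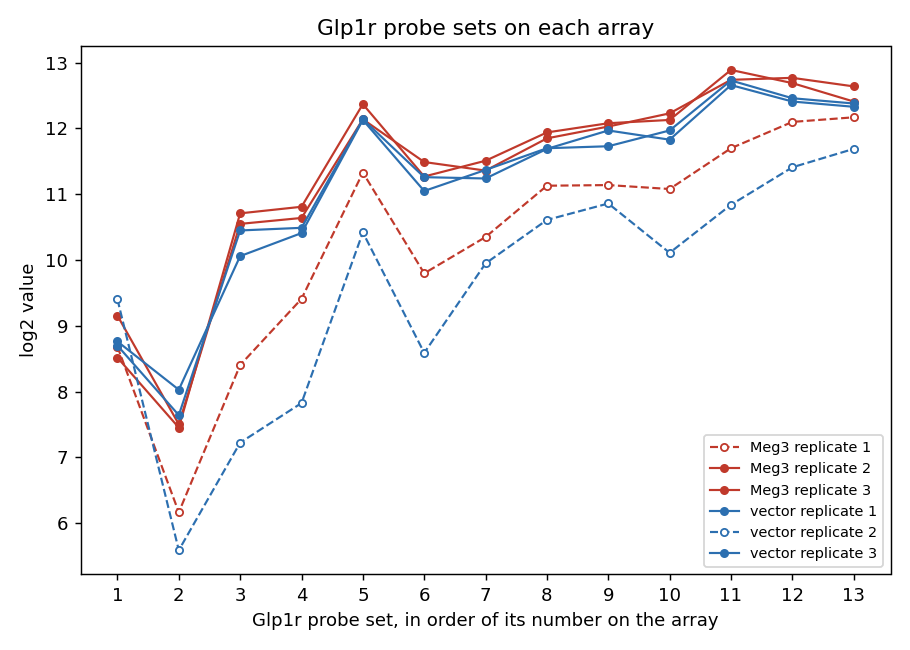
Log2 value (vertical axis) of the 13 Glp1r probe sets in the order of their numbers on the array (horizontal axis), which need not be their order along the transcript. Red lines are Meg3 cultures, blue lines vector cultures, and dashed lines with open circles are Meg3 replicate 1 and vector replicate 2. The 4 solid lines run together, and the dashed lines lie below them in 12 of 13 probe sets.

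Gene by gene, the pattern most like that of Glp1r over the 6 arrays was sought among 9713 genes above the median level, with predicted and clone-derived gene names left out, as the root mean square distance after each gene's own mean was subtracted. The closest were Cdh4, a cadherin (distance 0.06), Ncdn, encoding neurochondrin (0.08), Tmem63b, a membrane channel gene (0.08), Mrpl4, a mitochondrial ribosomal protein gene (0.09), and Eno1, the glycolytic enolase gene (0.10), where the median distance was 0.61. Cdh4 read 8.88, 9.89 and 9.75 in the Meg3 cultures, against 9.64, 8.13 and 9.64 in the vector cultures. Each of these 5 genes was lowest on vector replicate 2 and next lowest on Meg3 replicate 1, as Glp1r was. That follows from their choice by likeness on the same arrays and is no separate result.

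Gipr, the receptor for the other incretin, GIP, read 6.37, 7.05 and 6.84 in the Meg3 clone, against 6.60, 6.57 and 6.63 in the vector clone. Its mean lay above that of 50.4% of all genes, and the vector cultures kept within a narrow range while the Meg3 cultures spread to either side of it. The difference was 0.15 (SE 0.18, 95% interval -0.25 to 0.56; limma adjusted p = 1.00). Meg3 replicate 1, which stood apart, was the low Meg3 culture, and without both such arrays the difference was 0.33 (SE 0.11, 95% interval 0.09 to 0.57; limma adjusted p = 0.119). With 1 array left out at a time it ran from 0.0055 (without Meg3 replicate 2) to 0.35 (without Meg3 replicate 1). With the median of the probe sets in place of their mean it was 0.33, and with the brightest probe set 0.55, uncalled in each of these fits.

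The 15 probe sets of Gipr did not move together. On vector replicate 2, which stood apart, 7 of the 15 read lower than the mean of the other vector cultures. Over the 15 these deviations ran from -1.46 (10560445) to 1.92 (10560449), and the narrow vector range of the gene value averages over them. The clones did not overlap for 5 of the 15 probe sets, 3 with higher and 2 with lower values in Meg3 cultures, where 11.6% of all probe sets did not overlap. Probe set 10560446 read 8.19, 8.36 and 8.31 in the Meg3 cultures, against 7.50, 7.58 and 7.81 in the vector cultures. In the other direction, 10560458 read 5.31, 5.64 and 5.62 in the Meg3 cultures, against 6.07, 6.41 and 5.92 in the vector cultures. Probe set 10560446 lay above the olfactory 95th percentile and 10560458 below it. When each was fitted by itself, 0 of the 15 passed (limma, lowest adjusted p = 0.684), where 0.00377% of all probe sets did, and 3 had an unadjusted p under 0.05, where 5.65% of all probe sets had.

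Gcgr, the glucagon receptor, read 5.84, 5.77 and 6.03 in the Meg3 clone, against 5.77, 5.90 and 5.71 in the vector clone. Its level was above that of 33.2% of all genes, and the groups overlapped. The difference of 0.09 (SE 0.12, 95% interval -0.20 to 0.37; limma adjusted p = 1.00) had an interval from 0.870-fold to 1.29-fold. It depended on how probe sets were summarised, at 0.40 with their median (limma adjusted p = 0.730) and 0.50 with the brightest (limma adjusted p = 0.880), and ran from 0.0102 (without Meg3 replicate 3) to 0.14 (without Meg3 replicate 2) with 1 array left out at a time. Its probe sets ranged from 3.69 to 7.31 in level, and in the Meg3 clone 9 were higher and 4 lower.

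Gpr119, a receptor for lipid amides that couples to Gs, has a single probe set on the array. It read 5.16, 5.11 and 5.10 in the Meg3 clone, against 5.12, 5.17 and 5.10 in the vector clone. These values lay under the olfactory 95th percentile of 6.04 and hardly varied: only 0.0539% of all genes had a smaller SD over the 6 arrays. The difference was -0.01 (SE 0.11, 95% interval -0.25 to 0.24), for a probe set read between the olfactory median of 4.16 and that percentile. Whether Gpr119 is expressed in these cells was not tested.

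Of the Gq-coupled receptors, P2ry1, a receptor for ADP, had a mean above that of 97.3% of all genes. P2ry1 read 10.67, 10.86 and 10.52 in the Meg3 clone, against 10.85, 10.98 and 10.75 in the vector clone. The groups overlapped, and vector replicate 2, the lowest array for Glp1r, was the highest for P2ry1. Its probe sets moved in opposite directions on the arrays that stood apart: 10492331 differed from the other cultures of its clone by -1.07 on Meg3 replicate 1 and by -0.67 on vector replicate 2, whereas 10492333 differed by 0.57 and 0.85 and 10492334 by 0.49 and 0.62 on the same arrays. The difference was -0.18 (SE 0.13, 95% interval -0.48 to 0.13; limma adjusted p = 1.00). Of its 4 probe sets 3 were lower in the Meg3 clone, and the brightest, 10492332, read 12.32, 12.44 and 12.35 in the Meg3 cultures, against 12.29, 12.25 and 12.32 in the vector cultures, a difference of 0.08 in the other direction.

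Chrm3, the M3 muscarinic receptor through which acetylcholine acts on beta cells, read 7.78, 8.03 and 7.79 in the Meg3 clone, against 8.36, 7.96 and 7.99 in the vector clone. Meg3 replicate 2 lay above 2 of the vector cultures, so the groups overlapped. The difference of -0.24 (SE 0.15, 95% interval -0.58 to 0.11; limma adjusted p = 0.970) was much the same without the arrays that stood apart (-0.27, SE 0.14; limma adjusted p = 0.332), and was -0.11 without vector replicate 1. Of 6 probe sets 5 were lower in the Meg3 clone, and 0 were called. The lowest difference, -0.87, was that of 10407594, at a mean of 5.79 the only Chrm3 probe set under the olfactory 95th percentile. The differences of the others ran from -0.37 to 0.33.

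**Figure D4:**
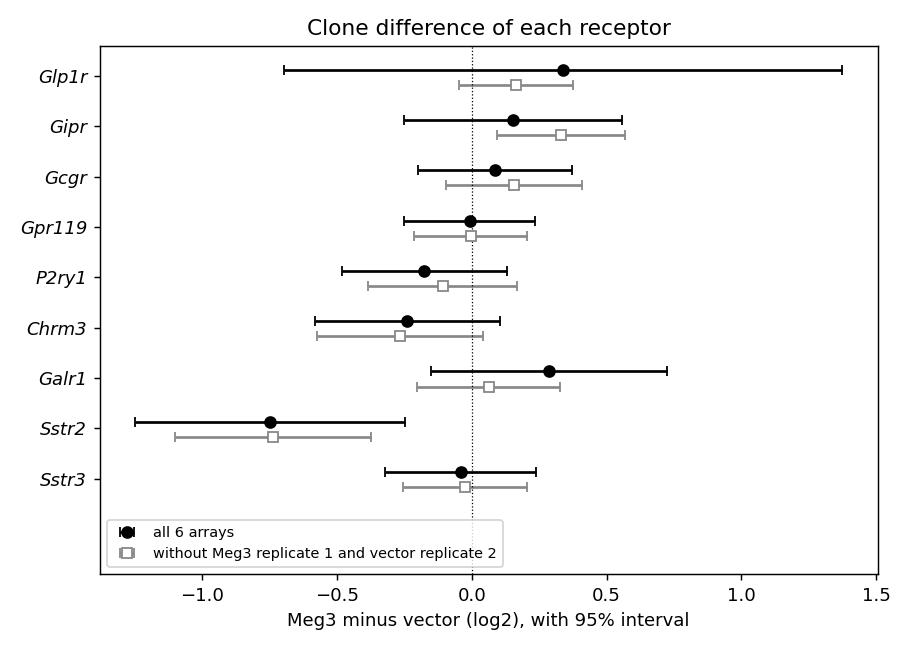
Difference of each receptor between the clones, Meg3 minus vector (horizontal axis, log2), with 95% intervals from limma. Black circles use all 6 arrays and grey squares leave out Meg3 replicate 1 and vector replicate 2. The interval of Glp1r narrows most, and that of Sstr2 lies below 0 in both fits (-1.25 to -0.25 with all arrays).

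Among the Gi-coupled receptors, Sstr2, a somatostatin receptor, showed the largest difference of the 9. Sstr2 read 5.70, 6.37 and 5.97 in the Meg3 clone, against 7.11, 6.47 and 6.70 in the vector clone. Every Meg3 culture lay below every vector culture. The mean was 6.01 ± 0.34 in the Meg3 clone and 6.76 ± 0.33 in the vector clone (SD, n = 3 each), a difference of -0.75 (SE 0.22, 95% interval -1.25 to -0.25), or 1.68-fold lower. It did not pass the test over all genes (limma unadjusted p = 0.00865, adjusted p = 0.318), and an exact two-sided permutation test of 3 against 3 arrays returned p = 0.1, its lowest possible value.

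All 3 Sstr2 probe sets were lower in the Meg3 clone, and 0 were called singly. The differences were -0.40 for the brightest, 10382342, -0.82 for 10382343 and -1.02 for the dimmest, 10382344. As a gene, Sstr2 differed by -0.79 with the median of its probe sets (limma adjusted p = 0.395). With the brightest it differed by -0.40 (limma adjusted p = 0.529). Probe set 10382343 read 5.66, 6.27 and 6.35 in the Meg3 cultures, against 7.20, 6.79 and 6.75 in the vector cultures, with no overlap. Probe set 10382342 did not overlap either, at 6.32, 6.48 and 6.59 in the Meg3 cultures, against 6.83, 6.92 and 6.84 in the vector cultures, while 10382344 did. Over all 6 arrays their means of 5.99 to 6.66 lay close to the olfactory 95th percentile of 6.04. By clone, the means of 10382342, 10382343 and 10382344 were 6.46, 6.09 and 5.48 in the Meg3 cultures. In the vector cultures they were 6.86, 6.91 and 6.50, all above that percentile. Without both arrays that stood apart the difference was -0.74 (SE 0.16; limma adjusted p = 0.0298) and passed, in a setting that called 5.44% of all genes. With each single array left out it ranged from -0.93 to -0.57 and was not called.

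Sstr3, a somatostatin receptor found on primary cilia, read 7.64, 7.90 and 7.73 in the Meg3 clone, against 7.81, 7.72 and 7.87 in the vector clone. The groups overlapped, with a difference of -0.04 (SE 0.12, 95% interval -0.32 to 0.24; limma adjusted p = 1.00), and 2 probe sets were higher and 2 lower. Its sign turned with the brightest probe set (0.07) and without Meg3 replicate 1 (0.02). Whether the clone differences of Sstr2 and Sstr3 differ from each other was not tested.

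Galr1, a galanin receptor, read 7.69, 7.61 and 7.66 in the Meg3 clone, against 7.73, 6.95 and 7.41 in the vector clone. The Meg3 cultures lay close together, and the low vector value came from vector replicate 2, which stood apart. The difference of 0.29 (SE 0.19, 95% interval -0.15 to 0.72; limma adjusted p = 0.994) shrank to 0.06 (SE 0.12) without both arrays that stood apart, and was 0.69 with the median of the probe sets. The low reading came mainly from probe set 10460013, which read 8.26, 8.52 and 8.61 in the Meg3 cultures, against 8.76, 5.98 and 8.34 in the vector cultures. The brightest Galr1 probe set, 10460012, read 9.77, 9.50 and 9.72 in the Meg3 cultures, against 9.11, 9.41 and 9.13 in the vector cultures, with no overlap and a difference of 0.45 (limma adjusted p = 0.905). Of 5 probe sets 4 were higher in the Meg3 clone and 1, 10460015, was lower. It read 4.066, 3.111 and 3.441 in the Meg3 cultures, against 5.285, 3.435 and 3.528 in the vector cultures. At a mean of 3.81 it was the only Galr1 probe set under the olfactory 95th percentile, and the gene values above include it.

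Over all receptors, 0 of the 64 probe sets were called in the limma fit to single probe sets, where 0.00377% of all probe sets were, and 4 had an unadjusted p under 0.05 (5.65% of all probe sets). The clones did not overlap for 10 of the 64, where 11.6% of all probe sets did not, 5 of them higher and 5 lower in Meg3 cultures.

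The signalling partners of these receptors were described through 9 lists with 194 genes, of which 184 were measured. Of these, 1 passed the test, or 0.543%, against 0.666% of all genes, and it was Plcb1, a phospholipase C beta isoform that Gq activates. Plcb1 read 8.13, 8.10 and 7.96 in the Meg3 clone, against 7.14, 6.63 and 7.19 in the vector clone. The groups did not overlap, and Plcb1 differed by 1.08 (SE 0.17), or 2.11-fold (limma adjusted p = 0.0354). Of its 38 probe sets 35 were higher in the Meg3 clone, and 0 passed singly (limma, lowest adjusted p = 0.241). As a gene, Plcb1 was not called with the median of its probe sets (1.06, limma adjusted p = 0.177) or with the brightest (0.98, limma adjusted p = 0.298). With each array left out in turn, the difference was 0.90 to 1.18 and was called in 1 of 6 fits, the 1 without vector replicate 2 (limma adjusted p = 0.00806), while the other 5 gave 0.0874 to 0.197. Without both arrays that stood apart it was 0.86 (limma adjusted p = 0.00113).

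**Figure D5:**
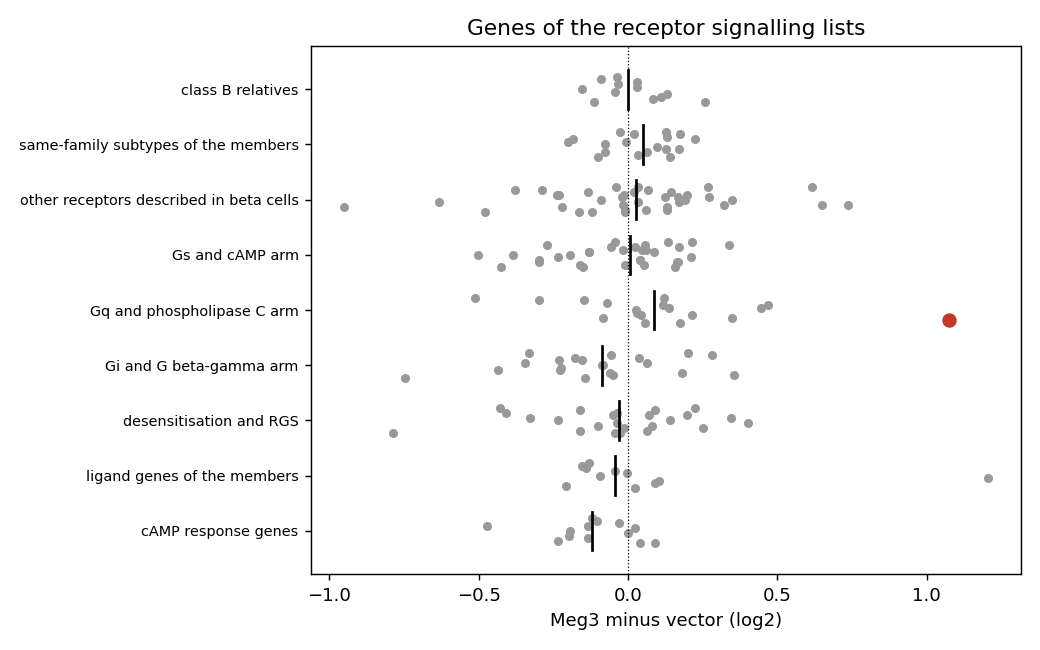
Difference between the clones, Meg3 minus vector (horizontal axis, log2), of every measured gene in 9 lists of receptors and signalling partners (rows). Grey points are genes, black bars the list medians, and the red point is Plcb1 (1.08), the 1 gene past the test. List medians lie between -0.12 and 0.09.

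The remaining members of the Gq and phospholipase C list included its brightest, Prkca, a protein kinase C gene (0.47, SE 0.22), and Plcb4, another phospholipase C beta gene (0.17, SE 0.12). In that list of 18 genes, 1 was called higher and 0 lower, with a median of 0.09. The Gs and cyclic AMP list had 0 of 32 called and a median of 0.01. Its brightest members were Prkar1a, a regulatory subunit of protein kinase A (-0.13, SE 0.18), and Creb1, the cyclic AMP response factor (-0.02, SE 0.12). The Gi and G beta-gamma list had 0 of 21 called and a median of -0.09, with the G protein genes Gng12 (-0.14, SE 0.14) and Gnb1 (0.18, SE 0.15) brightest. Genes that end receptor signalling, the arrestins, receptor kinases and RGS proteins, were listed together with the genes Ramp1, Ramp2 and Ramp3. That list had 0 of 24 called and a median of -0.03. Rgs4 differed by -0.16 (SE 0.15) and Rgs9 by 0.20 (SE 0.23).

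Of other receptors, 0 passed the test. Relatives of Glp1r, Gipr and Gcgr in class B had 0 of 12 called (median -0.00, range -0.15 to 0.26), with the corticotropin-releasing hormone receptor gene Crhr1 (-0.04, SE 0.16) and the VIP receptor gene Vipr1 (-0.04, SE 0.15) brightest. Subtypes in the members' own families had 0 of 18 called (median 0.05), with Galr3 at -0.08 (SE 0.11) and the nucleotide receptor gene P2ry6 at 0.13 (SE 0.16). A list of 38 further receptors described in beta cells had 0 called (median 0.03, range -0.95 to 0.74). Its brightest were Adgrg1, an adhesion receptor gene (-0.12, SE 0.35), and Ffar3, a receptor for short-chain fatty acids (-0.02, SE 0.18).

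Genes of the ligands were measured in the same cells. Gcg, which encodes glucagon and GLP-1, differed by -0.16 (SE 0.12), and Ddc, an enzyme of amine synthesis, by -0.13 (SE 0.19), with 0 of 11 called in that list (median -0.04). Genes that respond to cyclic AMP had 0 of 13 called (median -0.12), with the coactivator gene Ppargc1a at 0.00 (SE 0.15) and the phosphatase gene Dusp1 at -0.47 (SE 0.39). Across the 9 lists, 25 genes had an unadjusted p under 0.05, or 13.6% against 6.96% of all genes. Without both arrays that stood apart, 7 listed genes were called higher and 13 lower, or 10.9% against 5.44% of all genes. That setting was chosen after seeing the data, and the lists with earlier results of these data known. Neither share is therefore a test of the lists.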

How the data were processed

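Per the submitters' processing notes, the authors made the deposited log2 values, 1 per probe set and array, with RMA, and Partek is also named; their versions, any filter and the build were not given in the sources used here. Values ran from 2.58 to 14.06 and array medians from 7.02 to 7.19. There is no read depth for arrays, and the precision depends on how many there were and on the spread between them.

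Probe sets whose array annotation, dated before later symbol changes, gave 1 symbol were averaged per gene (20416 genes, median 8 probe sets). Symbols were updated through the GRCm38.p6 gene table. No coordinates are given, since the build behind the annotation is unknown. limma 3.58.1 in R 4.3.3 (lmFit, eBayes, two-sided, no covariates) was fitted over all genes with Benjamini-Hochberg adjustment, and tested on simulated data. Figures used matplotlib 3.10.9.

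The receptors and lists were chosen with earlier results of these data known. Named were all members, Meg3, markers, of each list up to 4 called genes and the 2 with the highest level, and the 5 genes nearest in pattern to the receptor that varied most over the arrays, chosen by their values. Any further gene is said to be chosen after its values were seen. Alternatives were a replicate block, other normalizations, filters, summaries and eBayes settings, and leaving out arrays. Deviations of same-numbered arrays from their clone means correlated at -0.61, -0.63 and 0.28. The arrays that stood apart, Meg3 replicate 1 and vector replicate 2, carry different numbers and weigh on these correlations. They therefore cannot settle whether the replicate numbers pair the arrays.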

Additional observations from a re-analysis of the deposited data

How the results depend on the processing

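The count of receptors called by limma stayed at 0 under every alternative run except 2 (Gpr119 itself was left out with the dimmest 30% of genes). With array weights, whose estimation stopped before reaching its tolerance, it was 1 (Sstr2, -0.65, adjusted p = 0.00772) among 2682 genes, or 13.1%. Without both arrays that stood apart, chosen after seeing the data, it was 1 (Sstr2, -0.74, adjusted p = 0.0298) among 1111 genes. Over all genes the count, 136, was 30 with the replicate block, where 0 receptors were called and 0 of 6 arrays correlated best with the array of their own number. It was 58 with the median of probe sets, 40 with the brightest probe set, 8 for probe sets fitted by themselves, and from 22 (without Meg3 replicate 3) to 349 (without vector replicate 2) with each array left out. The count of listed genes, 1, was 0 with the replicate block (Plcb1, adjusted p = 0.154), 2 on centring each array on its median, 47 with array weights, 20 without both arrays that stood apart, and 0 to 8 with each array left out, with 8 without vector replicate 2. Signs of uncalled differences turned for Gpr119 on centring (0.0017), with array weights (0.0062) and without Meg3 replicate 3 or vector replicate 2 (range -0.0251 to 0.0119 over single arrays left out), for P2ry1 (0.0802) and Sstr3 (0.0702) with the brightest probe set, for Sstr3 without Meg3 replicate 1 (0.0162, range -0.11 to 0.0162) and for Glp1r without vector replicate 2 (-0.18, range -0.18 to 0.68). The cause was not tested. Above the 99th percentile of olfactory receptor probe sets lay 31 receptor probe sets, against 47 at the 95th.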

Other observations

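Some listed genes outside the naming rule had larger differences than most receptors and are given here as chosen after their values were seen; by limma with all 6 arrays, 0 of these 6 genes passed, and each had an unadjusted p under 0.05. All 6 passed without both arrays that stood apart, a setting chosen after seeing the data that called 5.44% of all genes. Gnai1, an inhibitory G protein alpha subunit gene, came closest with all arrays. It read 7.63, 7.59 and 7.85 in the Meg3 clone, against 8.56, 8.34 and 8.40 in the vector clone (difference -0.75, SE 0.13; adjusted p = 0.0508, against -0.76 and 0.00536 without both arrays that stood apart). Htr1d, a serotonin receptor that couples to Gi, read 7.64, 7.50 and 7.59 in the Meg3 clone, against 6.97, 7.06 and 6.76 in the vector clone (0.65, SE 0.13; adjusted p = 0.0827, against 0.69 and 0.00593 without those arrays). Ptger3, a prostaglandin E receptor, read 6.34, 5.98 and 6.00 in the Meg3 clone, against 5.18, 5.54 and 5.40 in the vector clone (0.74, SE 0.15; adjusted p = 0.110, against 0.70 and 0.00535 without them). For these 3 genes the clones did not overlap, as for 12.8% of all genes.

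Th, the rate-limiting enzyme gene of catecholamine synthesis, read 8.15, 9.23 and 9.07 in the Meg3 clone, against 8.12, 6.75 and 7.96 in the vector clone (1.21, SE 0.40; limma adjusted p = 0.441). Both low readings within a clone were on the arrays that stood apart, as for Glp1r, and without those arrays the difference was 1.11 (limma adjusted p = 0.00038). Gabbr2, a GABA-B receptor subunit gene, read 7.29, 7.89 and 7.92 in the Meg3 clone, against 9.08, 7.84 and 9.03 in the vector clone (-0.95, SE 0.33; limma adjusted p = 0.501, against -1.15 and 0.000134 without those arrays), and Arrb1, the beta-arrestin-1 gene, read 6.86, 7.51 and 7.31 in the Meg3 clone, against 8.39, 7.27 and 8.38 in the vector clone (-0.79, SE 0.31; limma adjusted p = 0.632, against -0.97 and 0.000725 without them).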
